A study of Mus musculus with 3 samples.

Results

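The genes described here encode the machinery of fatty acid oxidation in mitochondria and peroxisomes. They are 32 of the 37074 genes on the arrays, and they were taken by name, as every probe that is not a control and whose gene name on the array is one of the 32. This gave 45 of 56605 probes. The rule itself uses no measured value. By role, they comprise 5 genes of the carnitine shuttle, 4 acyl-CoA dehydrogenases, 5 hydratases, dehydrogenases and thiolases of the mitochondrial spiral, 4 auxiliary enzymes for unsaturated fatty acids, 3 carriers of electrons to the respiratory chain, 8 peroxisomal genes and 3 acyl-CoA thioesterases.

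The question of the study was how a fraction of small proliferating cells that float with the fat cells of mouse adipose tissue, named SPA, differs from stromal vascular cells (SVC) and from mature adipocytes (MA). All groups came from the epididymal fat of male C57/BL mice of 20 weeks, digested with collagenase, and none carried a transgene or received a drug according to the labels. SVC were the lower phase of a spin of 1 s at 9 g, and the floating cells were spun again for 3 min at 226 g, which left MA on top and SPA as the sediment. SVC and SPA were grown in DMEM to 90% confluence before RNA was taken, whereas no culture is described for MA, so in any comparison with MA the type of cell cannot be told apart from the culture. The titles of the samples also carry another date for MA than for SVC and SPA. How many animals were pooled for each array is not given in the labels. RNA was labeled with Cy3 and each group was measured on 1 array, all 3 on 1 slide and in 1 scan, so no difference below has a replicate check and no test was run.

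Fatty acids are activated to acyl-CoA, carried into mitochondria by the carnitine shuttle, and shortened there in a repeated cycle of dehydrogenation, hydration, dehydrogenation and thiolysis. Peroxisomes run a parallel pathway that shortens very long and branched chains, and they pass the shortened products on to mitochondria. White adipocytes are known mainly for storing and releasing fatty acids, and brown and beige adipocytes for burning them. Many of the genes are classical targets of the nuclear receptor PPARα, and in fat also of PPARγ.

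Levels are given as the log2 of the processed signal of a probe minus the log2 of the signal at the 75th percentile of its array, so 0 is the 75th percentile and a difference of 1 is 2-fold. A level can be compared between arrays for 1 probe, but not between genes. Between 58.6% and 61.4% of the 59305 spots that are not controls were well above background on each array, and none was saturated. Probes printed several times on an array had a median SD of 0.04 to 0.05 on the log2 scale, which covers noise within an array and not the spread between samples. The local background was marked as outlying at the spots of Acadm and Decr1 in SVC, of Hadhb in SPA and of Eci2 in MA, and at that of Cpt1b on every array. Every array had a signal well above background for 31 of the 32 genes, and Abcd2 had one in MA alone.

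Most of the pathway was highest in MA. Of the 32 genes, 27 had their highest level in MA, 4 in SPA and 1 in SVC, and in 21 SPA was above SVC and MA above SPA. The shares of all genes with these orders are not given here. Taken pair by pair, MA was above SPA in 47.1% of all genes with a ratio, MA above SVC in 50% and SPA above SVC in 57.7%. The medium-chain enzyme Acadm, the hydratase Echs1, the peroxisomal bifunctional enzyme Ehhadh and the peroxisomal transporter Abcd2 were at least 5-fold higher in MA than in SPA. The 3 thioesterases, Cpt1a and Abcd3 had ratios of MA over SPA below 0, with Abcd3 and Acot2 so close to it that other scalings turned their sign, and Acot1 was lowest in MA.

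**Figure D1:**
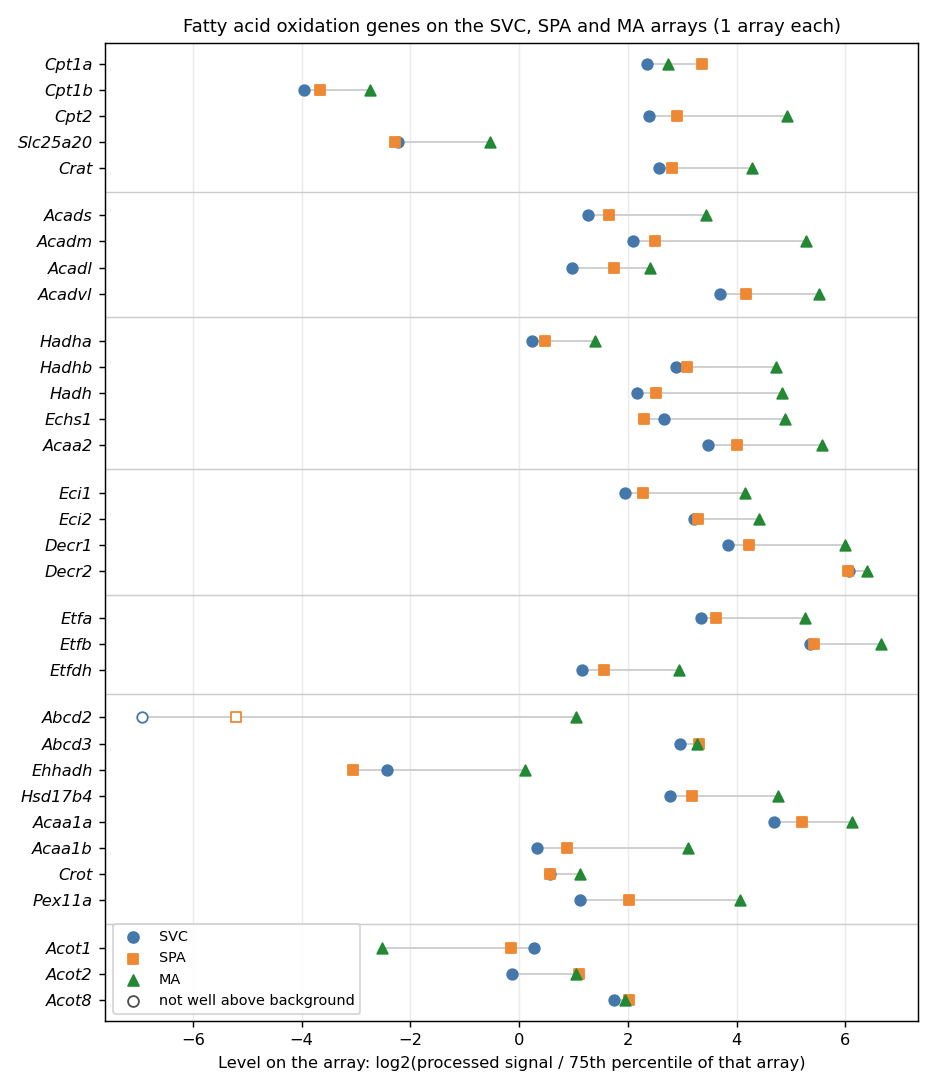
Level of each of the 32 genes on the SVC (circles), SPA (squares) and MA (triangles) arrays, as log2 of the processed signal over the 75th percentile of that array; horizontal lines separate the 7 roles and open symbols are not well above background. The triangle lies to the right in 27 genes, and Acot1 is the gene whose triangle lies to the left of both other symbols; positions should be read along a row and not between rows.

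SPA and SVC differed little. Over the 31 genes that could be read, SPA over SVC had a median log2 ratio of 0.35 (1.27-fold), beside 0.07 over all genes. The ratio was above 0 in 25 of the 31, where 57.7% of all genes were above 0. Among the other 6, the sign turned for Decr2 under quantile normalization and for Crot at its second probe, which gave 0.73. The sign of Eci2, among the 25, also turned under some settings. Second probes of Crat, Etfb and Eci2, all among the 25, gave -0.17, -0.03 and -0.05. Cpt1a and Acot2 were at least 2-fold higher in SPA, 2 of 31, where 3.9% of all genes tested were. None was 2-fold lower, where 3.25% of all genes were, and none passed 5-fold in either direction, where 0.322% of all genes were higher and 0.353% lower. The difference was thus spread over many genes in small steps, for which there is no replicate error.

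MA differed from SPA by much more. The median log2 ratio of MA over SPA was 1.51 (2.85-fold) over the 32 genes, 1 of them at its lower bound, beside -0.07 over all genes. The ratio was above 0 in 27 of the 32, where 47.1% of all genes were above 0. At least 2-fold higher in MA were 21 of the 32, where 15.8% of all genes tested were, and at least 5-fold higher were 4, where 5.49% were. Acot1 was the 1 gene that was 2-fold lower, where 17.9% of all genes were, and it was also past 5-fold, where 3.98% were. Most of the genes thus lay between 2-fold and 5-fold higher in MA.

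MA was also compared with SVC, on the same MA array as in the comparison above. The median log2 ratio was 1.81 (3.50-fold), beside a median of -0.00 over all genes. It was above 0 in 31 of the 32 genes, where 50% of all genes were above 0. At least 2-fold higher in MA were 26, where 17.3% of all genes were, and at least 5-fold higher were 7, where 5.74% were. Acot1 was again the exception, past 2-fold lower, where 18% of all genes were, and past 5-fold lower, where 3.97% were.

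**Figure D2:**
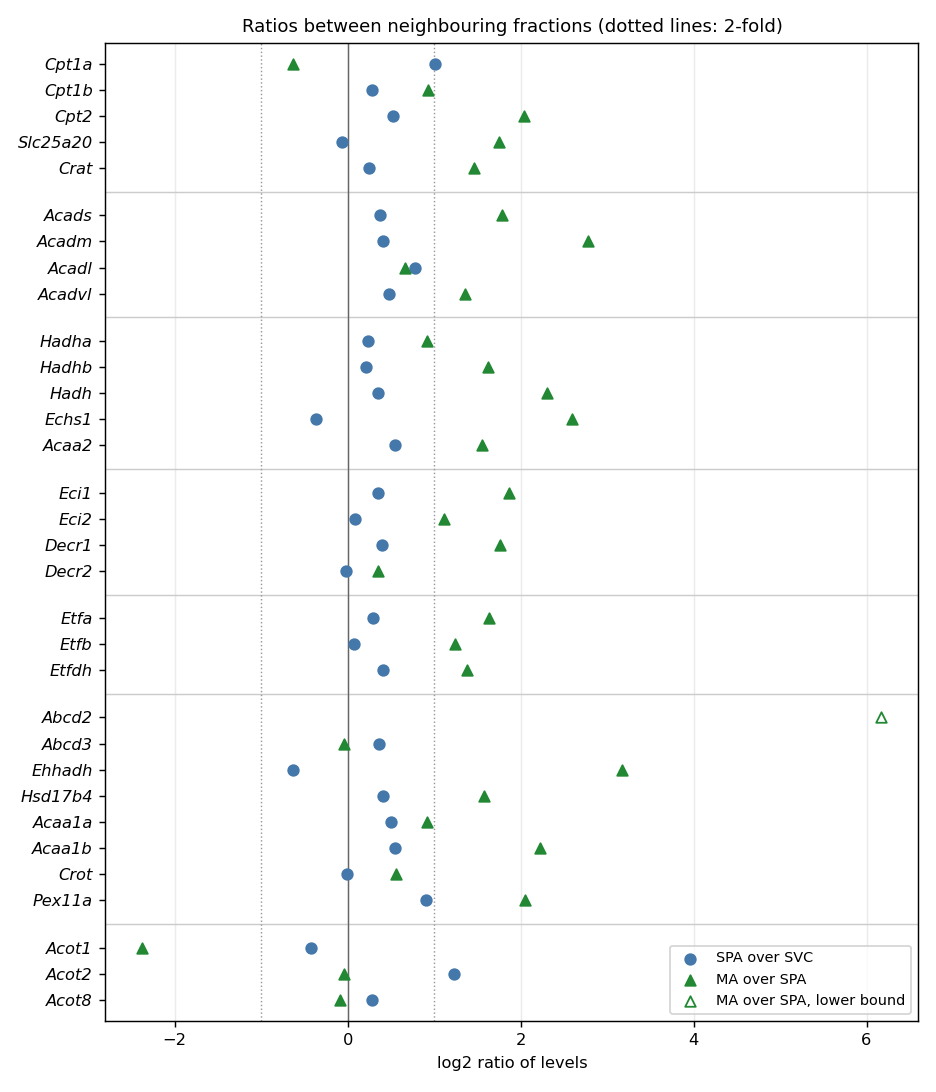
Log2 ratio of SPA over SVC (circles) and of MA over SPA (triangles) for each gene, with the open triangle of Abcd2 as a lower bound and dotted lines at 2-fold. The circles gather near their median of 0.35 and the triangles near 1.51, and the triangles of Cpt1a, Abcd3 and the 3 thioesterases lie at or left of 0.

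The carnitine shuttle brings long-chain acyl groups across the inner mitochondrial membrane. Cpt1a and Cpt1b, the liver and muscle forms of carnitine palmitoyltransferase 1, set the rate at the outer membrane. Cpt1a had levels of 2.35 in SVC, 3.36 in SPA and 2.73 in MA, so it was highest in SPA, 2.02-fold above SVC and 1.55-fold above MA. Cpt1b had levels of -3.95 in SVC, -3.67 in SPA and -2.74 in MA, near the dim end of the array, and was 1.91-fold higher in MA than in SPA. Besides its local background, the Cpt1b probe has a second annotation, being also assigned to a transcript that reads through into Cpt1b, so the source of its signal is not settled. The 60-base probes of Cpt1a and Cpt1b share a run of 7 bases at most.

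The later steps of the shuttle were higher in MA. Cpt2, which returns the acyl group to CoA inside the mitochondrion, had levels of 2.38 in SVC, 2.90 in SPA and 4.93 in MA, 4.10-fold higher in MA than in SPA, and its second probe gave a log2 ratio of 2.63 beside 2.03. Slc25a20, the carrier that exchanges acylcarnitine for carnitine, had levels of -2.22 in SVC, -2.28 in SPA and -0.54 in MA, and was 3.35-fold higher in MA than in SPA while SVC and SPA differed by 0.06 on the log2 scale. Crat, which attaches short acyl groups to carnitine, had levels of 2.57 in SVC, 2.82 in SPA and 4.28 in MA. Within the shuttle, Cpt1a was thus highest in SPA, and Cpt1b, Cpt2, Slc25a20 and Crat were highest in MA.

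The acyl-CoA dehydrogenases take the first step of each round and divide the work by chain length. Acadm, the medium-chain enzyme, had levels of 2.09 in SVC, 2.50 in SPA and 5.27 in MA, which is 6.86-fold higher in MA than in SPA and 9.08-fold higher than in SVC. Its probe lies at chr3:153585469-153585528 (mm9, minus strand). No other gene of the 32 measured on both arrays had a larger ratio of MA over SVC. The Acadm spot in SVC, on which this ratio rests, was marked for outlying local background. Acads, the short-chain enzyme, had levels of 1.27 in SVC, 1.65 in SPA and 3.43 in MA, and Acadvl, the very-long-chain enzyme, 3.69 in SVC, 4.17 in SPA and 5.52 in MA. These were 3.44-fold and 2.56-fold higher in MA than in SPA. Acadl, the long-chain enzyme, had levels of 0.97 in SVC, 1.75 in SPA and 2.41 in MA, steps of 0.77 from SVC to SPA and of 0.66 from SPA to MA. It was the dehydrogenase with the smallest ratio of MA over SPA, 1.58-fold, and the only 1 of the 4 below 2-fold.

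Hydration, the second dehydrogenation and thiolysis complete the round. Echs1, the short-chain hydratase, had levels of 2.66 in SVC, 2.30 in SPA and 4.89 in MA, 6.02-fold higher in MA than in SPA and slightly lower in SPA than in SVC. A second Echs1 probe gave a smaller log2 ratio of MA over SPA, 1.70 beside 2.59, so the 5-fold mark was passed at 1 probe and not at the other. Hadh, the hydroxyacyl-CoA dehydrogenase of medium and short chains, had levels of 2.17 in SVC, 2.52 in SPA and 4.83 in MA, which at 4.96-fold was just under the 5-fold mark for MA over SPA. Acaa2, the thiolase of the matrix, had levels of 3.47 in SVC, 4.01 in SPA and 5.57 in MA, 2.95-fold higher in MA than in SPA.

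Hadha and Hadhb encode the subunits of the trifunctional protein, the complex of the inner membrane that carries out these steps on long chains. They lie head to head, and the sequence between their annotated starts is shown because 1 short stretch separates the genes of both subunits. It spans chr5:30154981-30155252 on the plus strand of GRCm38.p6 (RefSeq), with GC boxes (GGGCGG) in capitals.
Hadha-Hadhb: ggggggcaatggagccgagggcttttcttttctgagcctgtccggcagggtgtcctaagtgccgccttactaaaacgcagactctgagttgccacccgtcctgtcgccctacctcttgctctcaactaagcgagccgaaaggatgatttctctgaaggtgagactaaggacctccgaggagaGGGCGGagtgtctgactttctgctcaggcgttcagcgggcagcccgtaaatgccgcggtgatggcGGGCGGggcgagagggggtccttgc

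Both subunits had their levels in the order SVC, SPA, MA. Hadha had levels of 0.24 in SVC, 0.48 in SPA and 1.39 in MA, 1.89-fold higher in MA than in SPA. Hadhb had levels of 2.88 in SVC, 3.09 in SPA and 4.72 in MA, 3.09-fold higher in MA than in SPA. SPA exceeded SVC by nearly the same amount for both, 0.23 and 0.22 on the log2 scale. Hadhb has 3 probes on the array, and a second one annotated to RefSeq transcripts gave a log2 ratio of MA over SPA of 1.85, close to the 1.63 of the brightest. The third, annotated to an Ensembl transcript alone, gave -0.77.

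The auxiliary enzymes move or remove double bonds so that unsaturated chains can pass through the cycle. Eci1 and Eci2 are isomerases of mitochondria and, for Eci2, also of peroxisomes. Eci1 had levels of 1.94 in SVC, 2.29 in SPA and 4.15 in MA, 3.64-fold higher in MA than in SPA. Eci2 had levels of 3.21 in SVC, 3.30 in SPA and 4.41 in MA, 2.16-fold higher in MA than in SPA. Decr1, the mitochondrial dienoyl-CoA reductase, had levels of 3.83 in SVC, 4.22 in SPA and 5.99 in MA, 3.40-fold higher in MA than in SPA. Its peroxisomal counterpart Decr2 had levels of 6.07 in SVC, 6.05 in SPA and 6.40 in MA, so MA exceeded SPA by 0.35 on the log2 scale, and by 1.04, just past 2-fold, under quantile normalization.

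Electrons from the dehydrogenases pass to the electron transfer flavoprotein, made of Etfa and Etfb, and from there through Etfdh to the respiratory chain. The 3 genes had similar patterns. Etfa had levels of 3.34 in SVC, 3.62 in SPA and 5.26 in MA, Etfb 5.35 in SVC, 5.42 in SPA and 6.66 in MA, and Etfdh 1.15 in SVC, 1.55 in SPA and 2.93 in MA. They were 3.10-fold, 2.37-fold and 2.60-fold higher in MA than in SPA. The other probes of Etfa gave log2 ratios between 1.71 and 1.78 beside 1.63, and that of Etfb 1.42 beside 1.24. A second Etfdh probe, dim and annotated to an Ensembl transcript alone, gave 0.06.

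**Figure D3:**
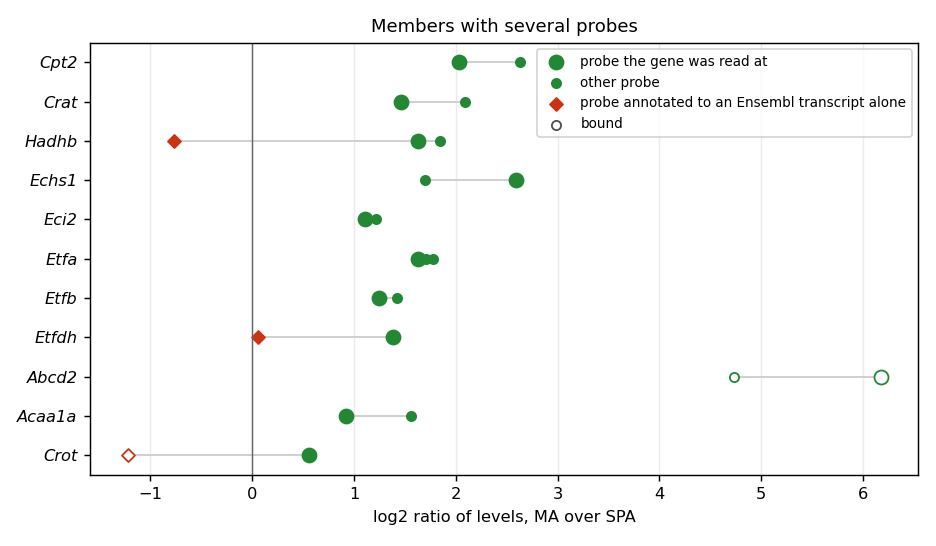
Log2 ratio of MA over SPA at every probe of the 11 genes with several probes; large symbols are the probe with the highest mean level, diamonds are probes annotated to an Ensembl transcript alone, and open symbols are bounds. In 9 of the 11 genes all probes lie on 1 side of 0, and the 3 diamonds, in Hadhb, Etfdh and Crot, lie at -0.77, 0.06 and -1.22.

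Peroxisomal genes held both the largest ratios and some of the smallest. Abcd2 and Abcd3 are transporters that bring fatty acyl-CoA into peroxisomes. Abcd2 was too dim in SVC and SPA to be well above background and had a level of 1.04 in MA. With the main background correction, its lower bound was 72.2-fold higher in MA than in SPA and 63.6-fold higher than in SVC. These bounds hold for that correction and are not minima under every setting. The brighter probe lies at chr15:90976316-90976375 (mm9, minus strand). Its second probe, also dim in SVC and SPA, gave at least 26.6-fold and at least 23.4-fold. Another background correction, normexp, gave Abcd2 smaller log2 ratios, 3.58 in place of 6.17 against SPA and 3.63 in place of 5.99 against SVC, both still past 5-fold. Abcd3 had levels of 2.95 in SVC, 3.31 in SPA and 3.27 in MA, and the difference of -0.04 between MA and SPA changed sign under 2 of the other scalings.

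Ehhadh and Hsd17b4 are the bifunctional enzymes that hydrate and dehydrogenate in peroxisomes, for straight chains and for branched and very long ones. Ehhadh had levels of -2.43 in SVC, -3.06 in SPA and 0.11 in MA, 9.03-fold higher in MA than in SPA and 1.55-fold lower in SPA than in SVC. Its probe lies at chr16:21761914-21761973 (mm9, minus strand). This was the largest ratio of MA over SPA measured on both arrays among the 32 genes, although it shrank from 3.17 to 2.17 on the log2 scale, below 5-fold, with the normexp background correction. Hsd17b4 had levels of 2.78 in SVC, 3.19 in SPA and 4.77 in MA, 2.99-fold higher in MA than in SPA. Between SVC and SPA the pair went opposite ways, with Ehhadh at -0.64 and Hsd17b4 at 0.41 on the log2 scale for SPA over SVC.

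In the mouse, a pair of paralogues, Acaa1a and Acaa1b, encodes the peroxisomal thiolase. Acaa1a had levels of 4.69 in SVC, 5.19 in SPA and 6.11 in MA, and Acaa1b 0.33 in SVC, 0.87 in SPA and 3.10 in MA. SPA exceeded SVC by 0.50 and 0.55 on the log2 scale, and MA exceeded SPA by 0.92 and 2.22, so the paralogues were alike in the first step and apart in the second. Their probes share a run of 6 of 60 bases at most, and the second Acaa1a probe gave a log2 ratio of MA over SPA of 1.56. Pex11a, which drives the division of peroxisomes, had levels of 1.11 in SVC, 2.01 in SPA and 4.06 in MA, which is 1.87-fold up from SVC to SPA and 4.14-fold up from SPA to MA. Crot, which exports shortened chains as carnitine esters, had levels of 0.57 in SVC, 0.57 in SPA and 1.13 in MA. A second Crot probe, annotated to an Ensembl transcript alone, was not well above background in MA and was at least 2.33-fold lower there than in SPA, so the direction of Crot depends on the probe.

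The thioesterases release free fatty acid and CoA from acyl-CoA, in the cytosol for Acot1, in mitochondria for Acot2 and in peroxisomes for Acot8. Acot1 had levels of 0.28 in SVC, -0.15 in SPA and -2.52 in MA, 5.18-fold lower in MA than in SPA and 6.99-fold lower than in SVC. For Acot1, normexp gave log2 ratios of -1.66 in place of -2.37 against SPA and -2.05 in place of -2.80 against SVC, both short of 5-fold. Acot2 had levels of -0.13 in SVC, 1.09 in SPA and 1.05 in MA, 2.34-fold up from SVC to SPA with hardly a step between SPA and MA, where the difference of -0.05 changed sign under 1 of the other scalings. Acot8 had levels of 1.75 in SVC, 2.03 in SPA and 1.94 in MA. Acot1 and Acot2 are neighbouring paralogues, and SVC was highest for Acot1 and lowest for Acot2. Their probes, at chr12:85358452-85358511 for Acot1 and chr12:85334553-85334612 for Acot2 (mm9, plus strand), share a run of 6 of 60 bases at most.

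The bases just before the starts of this pair are shown because SVC was at opposite ends for the neighbours. They are chr12:84009402-84009501 for Acot1 and chr12:83987761-83987860 for Acot2, both on the plus strand of GRCm38.p6 (RefSeq), with a CCAAT box and a GC box (CCGCCC, read on the other strand) in capitals where they occur. Each stretch is 100 bases long. In the longer windows, of 250 bases before and 50 bases after the start, Acot1 and Acot2 both had a CCAAT box, and Acot1 alone of the pair had a GC box.
Acot1: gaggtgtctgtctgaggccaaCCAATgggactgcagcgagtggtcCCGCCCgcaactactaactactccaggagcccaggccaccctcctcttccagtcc
Acot2: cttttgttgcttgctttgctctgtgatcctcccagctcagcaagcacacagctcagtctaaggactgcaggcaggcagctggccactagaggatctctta

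Promoter sequence was at hand for 26 of the 32 genes, as the 250 bases before and 50 bases after the annotated start. The element of PPAR, written as 2 copies of AGGTCA with 1 base between them and searched on both strands, was in 0 of the 26 windows and in 0.0481% of all 27025 windows of the same length, and its looser form, with any base at the fourth place of each copy, in 0 and in 0.451%. The single nuclear receptor motif AGGTCA was in 4 of the 26 (15.4%), namely those of Cpt1a, Acadm, Acadvl and Echs1, and in 18.1% of all windows. Its longer form AAGGTCA, which contains it, was in that of Acadm alone, where 5.38% of all windows hold it. These are short windows, and a match is a match of letters only. The stretch of the Acadm window is shown because Acadm had the largest measured ratio of MA over SVC, though with a marked local background in SVC. It lies on the minus strand at chr3:153944827-153944893 of GRCm38.p6 (RefSeq), with the longer motif in capitals as it reads on the other strand.
Acadm: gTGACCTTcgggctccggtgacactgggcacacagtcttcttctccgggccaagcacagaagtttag

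What the windows shared was a lack of TATA boxes and a frequent GC box. The GC box GGGCGG was in 20 of the 26 (76.9%) and in 38.2% of all windows, the CCAAT box in 13 (50%) and in 41.1%, and TATAAA in 0 and in 15.7%, each on either strand.

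Genes around the 32 in the pathway were read from lists chosen by function. For MA over SPA, the counts in these lists stand beside 15.8% of all genes tested at least 2-fold higher and 17.9% at least 2-fold lower. Past 5-fold these shares were 5.49% and 3.98%. The other enzymes of mitochondrial oxidation, which include those for odd and branched chains, had a median log2 ratio of MA over SPA of 1.67 over 15 genes, with 8 at least 2-fold higher and 1 lower. The 3 largest were Acad11 with 2.91 and Pcca and Pccb, the subunits of propionyl-CoA carboxylase, with 2.85 and 2.80. Cpt1c, the form of carnitine palmitoyltransferase known from neurons, had levels of 1.04 in SVC, 1.15 in SPA and -1.67 in MA and was 7.09-fold lower in MA than in SPA. Its levels in SVC and SPA differed by 0.11.

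Acyl-CoA synthetases supply the substrate. Their median log2 ratio of MA over SPA was 0.61 over the 12 of 13 that could be read, with 5 at least 2-fold higher and 1 lower. Acsl1, the main long-chain synthetase of fat cells, had levels of 1.01 in SVC, 2.30 in SPA and 6.60 in MA, 19.7-fold higher in MA than in SPA. Acsm3, a medium-chain synthetase, was well above background in MA alone and at least 8.30-fold higher there than in SPA. Acss2, which activates acetate, had levels of -0.64 in SVC, 0.88 in SPA and 2.56 in MA, 9.19-fold higher in MA than in SVC at its brightest probe, while its probes ranged from -0.52 to 1.68 in the log2 ratio of MA over SPA. The list of 18 other peroxisomal enzymes had a median of 0.55, with 8 at least 2-fold higher and 1 lower. Ech1, an isomerase of dienoyl-CoA, was 7.03-fold higher in MA than in SPA, and Phyh, which starts the breakdown of phytanic acid, 6.74-fold higher. Hacl1, which acts later in the same breakdown, was 4.79-fold higher in MA than in SPA and 8.59-fold higher than in SVC. Genes of peroxisome biogenesis had a median of 0.81 over 15 genes, with 6 at least 2-fold higher and none lower, and Pex16 was the 1 past 5-fold, at 7.83-fold.

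The regulators of oxidation had a median log2 ratio of MA over SPA of 1.23 over 15 genes, with 9 at least 2-fold higher and none lower. The list was not split by whether a gene promotes or restrains oxidation, so this count gives no direction for the pathway. Acaca, also in the list of fatty acid synthesis below, was 6.27-fold higher in MA than in SPA. Its probes ranged from -0.96 to 3.06 on the log2 scale. Pdk4, the kinase that turns pyruvate dehydrogenase off, had levels of -2.05 in SVC, -1.68 in SPA and 3.27 in MA, 30.9-fold higher in MA than in SPA. Lpin1 was 14.8-fold higher in MA than in SPA. Ppara, the receptor PPARα, had levels of -4.22 in SVC, -3.13 in SPA and 0.71 in MA, 14.3-fold higher in MA than in SPA and 30.5-fold higher than in SVC. Ppargc1a, a coactivator of mitochondrial genes, was well above background in MA alone and at least 9.28-fold higher there than in SPA.

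Other mitochondrial pathways had smaller ratios in the same direction. The citric acid cycle had a median log2 ratio of MA over SPA of 0.88 over 17 genes, with 7 at least 2-fold higher, and the subunits of the respiratory chain 0.67 over 19 genes, with 1 at least 2-fold higher, beside 1.51 and 21 of 32 in the oxidation list. Neither list had a gene past 5-fold. Between SPA and SVC their medians were 0.12 and 0.09. Fatty acid synthesis, the opposite pathway, was also higher in MA, with a median of 1.97 over 8 genes, 5 of them at least 2-fold higher in MA, led by Thrsp, Scd1 and Fasn with log2 ratios of 7.27, 5.62 and 3.98. Ketone body enzymes were mixed. Their median was 0.78 over 6 genes, with Aacs at 2.44 and Bdh2 at -2.70.

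**Figure D4:**
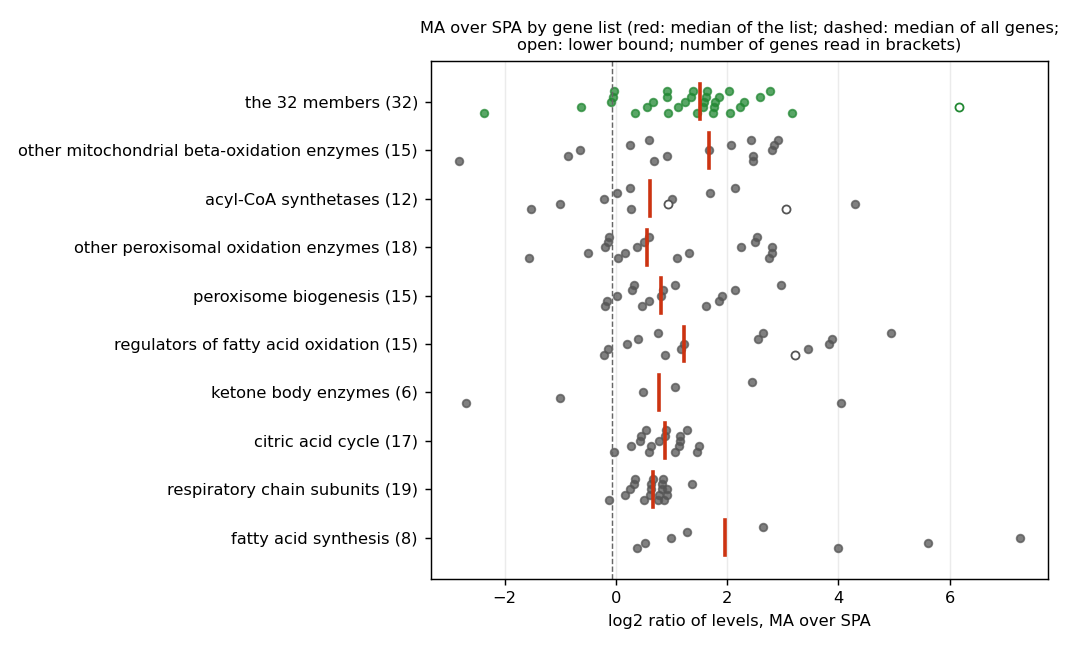
Log2 ratio of MA over SPA of each gene in the oxidation list (top) and in 9 lists of related pathways; red bars are medians, open symbols are lower bounds and the dashed line is the median of all genes. The oxidation list sits near its median of 1.51, the citric acid cycle and the respiratory chain lie in narrow bands near 0.88 and 0.67, and fatty acid synthesis reaches 7.27.

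Markers of other cell types differed between the fractions too, and their part in the values above was not tested. The mean level of 10 adipocyte genes was -2.17 in SVC, 1.72 in SPA and 6.78 in MA, and all 10 were at least 2-fold higher in MA than in SPA. Adipoq and Plin1 were not well above background in SVC. Between SVC and SPA the adipocyte genes had a median log2 ratio of 4.06, whereas the 31 oxidation genes read there had 0.35. The adipocyte ratios ran from 0.25, for Lep, to 6.52, with 2 of the 10 at lower bounds. Those of the oxidation genes ran from -0.64 to 1.22, so the ranges overlapped. The mean level of 10 endothelial genes was -1.46 in SVC, -0.82 in SPA and 2.70 in MA, and 9 were at least 2-fold higher in MA than in SPA. Of 7 erythrocyte genes, 3 were well above background in SVC and SPA and 6 in MA. The mean level over all 7 was 2.40 in MA, -5.34 in SVC and -5.42 in SPA. Dim probes entered these means at their own levels. The means in SVC and SPA thus lie below the lowest signals well above background and are not measured levels. Hbb-b1, Hbb-bt and Alas2 were above background in MA alone.

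Between SPA and MA, each of the other marker lists held log2 ratios on both sides of 0. The mesothelial genes had a median log2 ratio of MA over SPA of 2.65. At least 5-fold higher in MA were 5 of these 9, where 5.49% of all genes were. Only 1 was at least 2-fold lower, where 17.9% were. Between SVC and SPA, all 9 mesothelial genes were lower in SPA, with log2 ratios from -3.90 to -0.90 and a median of -2.58. Of these, 8 were at least 2-fold lower, where 3.25% of all genes were, and 6 at least 5-fold lower, where 0.353% were. The mean level of 10 macrophage genes was 4.29 in SVC, 3.91 in SPA and 2.90 in MA, of 10 fibroblast and progenitor genes 3.37, 2.55 and 3.76, of 9 mesothelial genes 1.54, -0.95 and 0.55, and of 8 genes of smooth muscle and pericytes 2.41, 1.82 and 2.28, in the same order. These means hide opposite changes. Of the macrophage genes, C1qa and C1qb were at least 5-fold higher in MA than in SPA. Cd68 and Gpnmb were at least 5-fold lower, Gpnmb 824-fold. From SVC to SPA their median log2 ratio was 0.005, with C1qa and C1qb at least 5-fold lower and Gpnmb 2.37-fold higher. Of the smooth muscle and pericyte genes, 2 were at least 5-fold higher in MA than in SPA and 2 lower. Over all genes these shares were 5.49% and 3.98%. Of 9 lymphocyte genes, SVC had 4 well above background, SPA 6 and MA 7, with Cd79a below it on every array, Cd8a above it in SPA alone, and Nkg7 and Klrb1c in MA alone. Of 10 genes of brown and beige adipocytes, SVC and SPA had 5 each well above background and MA had 9, with Ucp1, Cox8b, Otop1 and Ppargc1a above it in MA alone and Elovl3 on no array. Of the same list, 6 genes were at least 2-fold higher and 2 at least 2-fold lower in MA than in SPA, the lower ones being Dio2, 14.1-fold, and Fabp3, 7.52-fold. In bulk samples such as these, fewer cells of a type and less RNA per cell cannot be told apart.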

How the data were processed

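Samples were grouped by the labels, with 1 Agilent 1-colour array for each of SVC, SPA and MA. The authors deposited, spot by spot, the intensity from Agilent Feature Extraction 10.7.3.1, background-subtracted and detrended within the array, and a ratio of that signal to 1 constant per array. The settings of later steps are not given in the sources used here.

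Signals were scaled to the 75th percentile of each array over spots that are not controls (430 in SVC, 439 in SPA and 366 in MA) on the log2 scale, and outlier spots were left out. Spots of 1 probe were averaged, and where a gene had several probes the one with the highest mean level stood for it. In ratios, a probe not well above background on an array was given as a bound. The bound used its own level or the lowest signal well above background there, whichever was higher. Those lowest signals had levels of -4.95, -5.14 and -5.15 for SVC, SPA and MA. Mean levels of lists kept dim probes at their own levels. Calls use 5-fold, the rule of the study, and 2-fold. The number of arrays limits the precision, and no p-value is given.

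The 32 genes and all lists were chosen with earlier results of these data known. Every member was named, and of each pathway list the genes past 5-fold, at most the 3 largest in each direction and comparison, with Ppara and Ppargc1a in any case, and of each marker list the defining genes below background. Results for some genes that this rule names are not reported here. Gene names are those of the array, and 41 of 45 member probes had an accession under the same name in the RefSeq table of GRCm38.p6, which also gave the promoters. Where in a transcript a probe lies was not determined. Alternatives were the normexp correction (offset 50), quantile normalization, the percentile over probes that all 3 arrays had well above background, the ratios that the authors deposited, dim probes kept, dim probes dropped, the median probe, and the probe with the largest ratio. Dropping spots whose local background was outlying was added after seeing the data. The code that reads ratios was tested on simulated data. The tools were Python 3.11.15, numpy 2.4.6, pandas 2.3.3, matplotlib 3.10.9 and, for normexp, limma 3.58.1 in R 4.3.3.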

Additional observations from a re-analysis of the deposited data

How the results depend on the processing

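No paired analysis was possible because each group has 1 sample. Single genes gave 846 values under the 8 other settings chosen at the start and the 1 added after seeing the data. Of these, 836 kept their sign, and all 454 of genes past 2-fold did, 448 of them still past 2-fold. Many of these values had little or no room to differ, so the counts are a weak check. Keeping or dropping dim probes could affect Abcd2 alone. Choosing among probes could not move the 21 genes with 1 probe. The deposited ratios and the other percentile only shift all ratios of a comparison by the same amount. For MA over SPA, the median of the oxidation list was 1.36 with normexp, 1.86 with quantile normalization and 1.59 with the percentile over probes that every array had well above background, and for MA over SVC it was 1.73 with normexp and 2.04 with quantile normalization. Quantile normalization put 7 genes at least 5-fold higher in MA than in SPA and 11 higher than in SVC, and it moved the log2 ratio of MA over SPA from 1.24 to 1.89 for Etfb, from 0.92 to 1.60 for Acaa1a and from 1.76 to 2.37 for Decr1. The shares of all genes past these folds under the other settings are not given here. Over all genes measured on both arrays, the median log2 ratio under quantile normalization was -0.04 for MA over SPA and -0.07 for MA over SVC. Acot1 fell short of 5-fold against SPA and SVC with normexp, leaving 0 genes 5-fold lower, and against SPA with the other percentile, again 0. Taking the probe with the largest ratio put 2 genes 2-fold lower in MA than in SPA, the second being Crot at its Ensembl probe. Cpt1a fell just under 2-fold for SPA over SVC with normexp, quantile normalization, the other percentile and the deposited ratios, leaving 1 gene. Ratios of MA over SPA changed sign for Abcd3, Acot2 and Crot, of MA over SVC for Crot, and of SPA over SVC for Decr2, Crot and Eci2, under some of these settings. Causes were not tested. One array per group gives no error between samples, and signal near background limits Cpt1b, Ehhadh and Abcd2.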
